A study of Saccharomyces cerevisiae with 177 samples.

Results

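The condition described here is the stress labelled SM in budding yeast (Saccharomyces cerevisiae) that still held the Mediator subunit Med15. The labels do not spell out SM and give neither a dose nor a duration. In work on yeast amino acid control these letters usually stand for sulfometuron methyl, an inhibitor of acetolactate synthase, the first shared enzyme of isoleucine and valine synthesis. The members were chosen from the labels alone, as the 3 libraries of the group Med15_DMSO_SM set against the 3 of Med15_DMSO_no_stress. They are 6 of the 15 libraries of a stress experiment and of the 177 libraries of the series.

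All 6 libraries came from strain SHY1055, which is MATalpha with ade2::hisG, his3D200, leu2D0, lys2D0, met15D0, trp1D63 and ura3D0, carries RPB3-3xFlag, and has MED15 fused to 3xV5 and an IAA7 degron. It makes the plant F-box protein OSTIR from the GPD1 promoter, so that 3-indoleacetic acid (IAA) can trigger breakdown of Med15. The SM and no_stress cells had DMSO instead, and therefore carried the tagged Med15 as well. Growth was at 30 °C, in synthetic complete medium, up to mid-log phase. RNA made during 5 min was labelled with 4-thioU before sequencing. In such a bulk culture a change in every cell and a change in a share of the cells cannot be told apart. The groups labelled HS (the other stress, also with DMSO) and IAA_SM (SM after IAA), of 3 libraries each and of the same strain, are used for a few direct comparisons. The labels do not say that replicates A, B and C grew as separate cultures. The p-values therefore reflect how far these libraries spread, which may be technical.

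When yeast lacks an amino acid, uncharged tRNA activates the kinase Gcn2, which phosphorylates the initiation factor eIF2. General translation slows, while short upstream reading frames in the GCN4 mRNA let more of the activator Gcn4 be made. Gcn4 then switches on genes of nearly every amino acid pathway, whichever amino acid is short, by binding promoters at the letters TGACTC or close relatives. Its activation domain contacts Mediator through Med15, the protein made from the gene GAL11.

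To show where these letters lie in genes that answered most strongly, the stretch from 450 to 151 bases before the coding start is printed for 3 of the amino acid synthesis genes with the largest rises. The stretch was placed after the matches were known. Sequences are from the RefSeq genome R64, which is the sacCer3 build, and read in the direction of the gene. Capitals mark TGACTC or its reverse complement, wherever they occur. The ARG3 stretch is chrX:268349-268648 on the plus strand and holds 2 matches, 438 and 314 bases before the start; its first 67 bases lie in the neighbouring coding frame SIP4. The HIS4 stretch is chrIII:68484-68783 on the minus strand, with 3 matches at 255, 243 and 199 bases, and 185 of its bases lie in the coding frame of BIK1. The ARG1 stretch is chrXV:218761-219060 on the plus strand, with 2 matches at 345 and 274 bases.
ARG3: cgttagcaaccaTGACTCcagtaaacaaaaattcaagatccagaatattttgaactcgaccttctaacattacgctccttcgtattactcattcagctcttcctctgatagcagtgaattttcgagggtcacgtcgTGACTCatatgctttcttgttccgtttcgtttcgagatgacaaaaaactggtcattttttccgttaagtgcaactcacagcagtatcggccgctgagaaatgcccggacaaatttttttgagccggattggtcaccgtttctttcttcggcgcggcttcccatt
HIS4: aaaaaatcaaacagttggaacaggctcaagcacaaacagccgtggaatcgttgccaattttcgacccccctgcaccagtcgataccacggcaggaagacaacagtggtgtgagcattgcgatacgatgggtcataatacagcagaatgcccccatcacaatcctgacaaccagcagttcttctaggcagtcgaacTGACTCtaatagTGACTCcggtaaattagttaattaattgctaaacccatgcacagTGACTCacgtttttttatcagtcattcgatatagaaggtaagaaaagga
ARG1: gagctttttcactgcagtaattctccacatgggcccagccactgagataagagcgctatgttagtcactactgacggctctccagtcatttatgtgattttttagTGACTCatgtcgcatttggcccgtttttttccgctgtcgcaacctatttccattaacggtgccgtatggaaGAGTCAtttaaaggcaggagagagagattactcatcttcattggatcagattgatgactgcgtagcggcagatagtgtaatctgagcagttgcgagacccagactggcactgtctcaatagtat
In each of these 3 genes, 1 match is followed or preceded by the base that completes the longer form TGACTCA. A match describes letters in a sequence and not a site shown to be bound.

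Levels are given as CPM, counts scaled to library size with edgeR's TMM factors, in the order of replicates A, B and C. Changes are log2 differences, SM minus no_stress, of 3 against 3 libraries, with a standard error (SE). The adjusted p is from edgeR's quasi-likelihood test over 5547 genes, with the spread estimated from all 15 libraries of the stress experiment. The SE was computed back from that test, as the size of the change divided by the square root of its F. A gene is said to have risen or fallen where the adjusted p was under 0.05. The SM libraries held 7019492 to 10032201 counts and the no_stress libraries 4384651 to 6457583. Replicates of a group correlated at 0.9952 or more in log2 CPM across genes. Of the genes that the strain lacks, LEU2, HIS3, LYS2 and MET17 had 0 counts in all 6 libraries, ADE2 had 1 count in SM replicate B, and TRP1 and URA3 had 0 to 8 counts per library. The genotype also names HIS3 as the marker beside OSTIR, and the files still list that gene at 0. The mating type matches the label, with the alpha pheromone gene MF(ALPHA)1 at 2643 to 3409 CPM and the a pheromone gene MFA1 at 1.07 to 2.90 CPM. GAL11 stood at 899, 862 and 883 CPM under SM and at 932, 952 and 872 CPM in no_stress, and its change of −0.06 ± 0.06 did not pass (adjusted p = 0.379).

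SM moved many genes by a little and few genes by a lot. Of the genes tested, 2918 changed (52.6%): 1464 rose (26.4%) and 1454 fell (26.2%). The median size of a called change was 0.39 on the log2 scale. A rise of over 2-fold was called for 154 genes (2.78%) and a fall of over 2-fold for 97 (1.75%). Only 10 genes rose and 14 fell by over 2 log2 units. The values of the SM and no_stress libraries did not overlap in 3437 genes (62%). The split into rises and falls depends on the scaling. With libraries scaled by their total counts, which moved the median gene from −0.01 to −0.08, 1165 genes rose and 1888 fell.

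**Figure D1:**
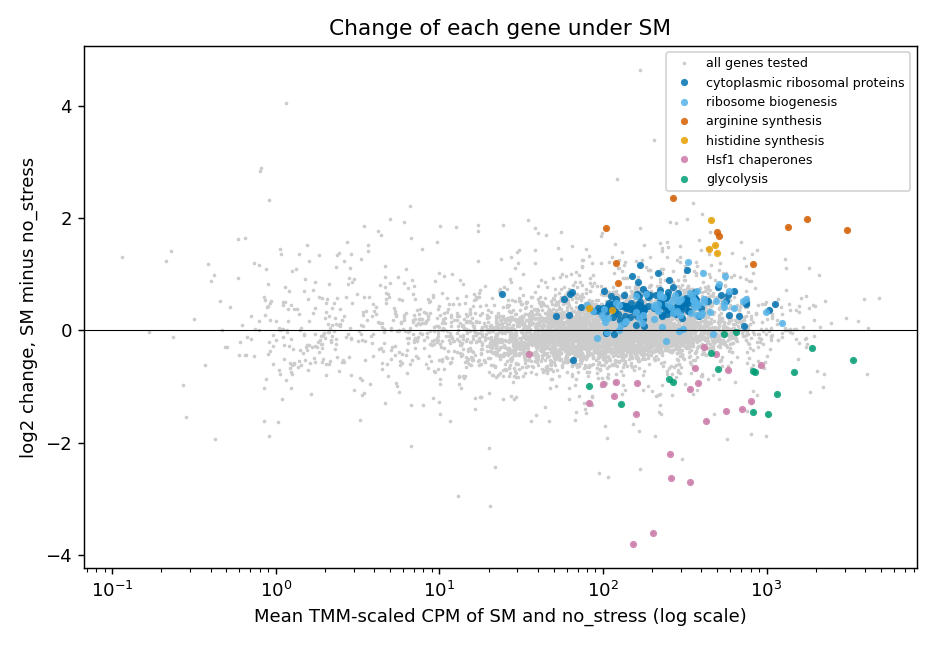
Each grey point is a gene tested, with the mean TMM-scaled CPM of the SM and no_stress libraries on a log axis and the log2 change (SM minus no_stress) on the vertical axis; colours mark 6 gene lists. Arginine and histidine synthesis genes lie above zero, and chaperones controlled by Hsf1 and glycolysis genes below. Cytoplasmic ribosomal protein genes lie mostly above zero, from −0.53 to 1.16 with a median of 0.43.

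Enzymes of arginine synthesis rose most as a group. All 10 genes of the list rose, 9 of them by over 2-fold, and the median change was 1.76, against −0.01 over all genes tested. Together they made up 12880 to 13844 CPM under SM and 3868 to 4052 CPM in no_stress. ARG3 encodes ornithine carbamoyltransferase, which makes citrulline. It stood at 471, 428 and 450 CPM under SM and at 94.9, 85.9 and 82.0 CPM in no_stress. Every SM library was far above every no_stress library, a 5.13-fold difference of means (log2 change 2.36 ± 0.08 SE, adjusted p = 2.17e-13). CPA1, the small subunit of the carbamoyl phosphate synthase that feeds this step, rose by 1.18 ± 0.08. The separately listed frame YOR302W, the short upstream peptide frame of the CPA1 mRNA through which arginine represses that mRNA, rose by 1.17 ± 0.08, from 257, 277 and 313 to 602, 660 and 636 CPM.

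The last steps of the pathway had the highest levels. ARG1, argininosuccinate synthetase, stood at 2080, 2087 and 2155 CPM under SM against 589, 629 and 552 CPM, with no overlap. ARG4, which splits argininosuccinate into arginine and fumarate, reached 4845, 4549 and 4986 CPM against 1323, 1399 and 1461 CPM. These were changes of 1.84 ± 0.07 and 1.78 ± 0.06, both with an adjusted p of 2.17e-13. ARG4 was also among the 5 genes with the largest gain per length, from 1002 to 3443 CPM per kb of coding sequence. Among the steps from glutamate to ornithine, ARG8 rose by 1.83 ± 0.10, the gene for both the kinase and the reductase (ARG5,6) by 1.75 ± 0.06, ARG7 by 1.68 ± 0.08 and ARG2, the first step, by 0.83 ± 0.07. ORT1, the mitochondrial ornithine exporter, rose by 1.20 ± 0.07. Genes on the control and breakdown side did not follow as a group. ARG80, a regulator in the arginine repressor complex, rose by 0.49 ± 0.06, while the breakdown genes CAR1 (arginase) and CAR2 fell by 0.92 and 0.70.

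**Figure D2:**
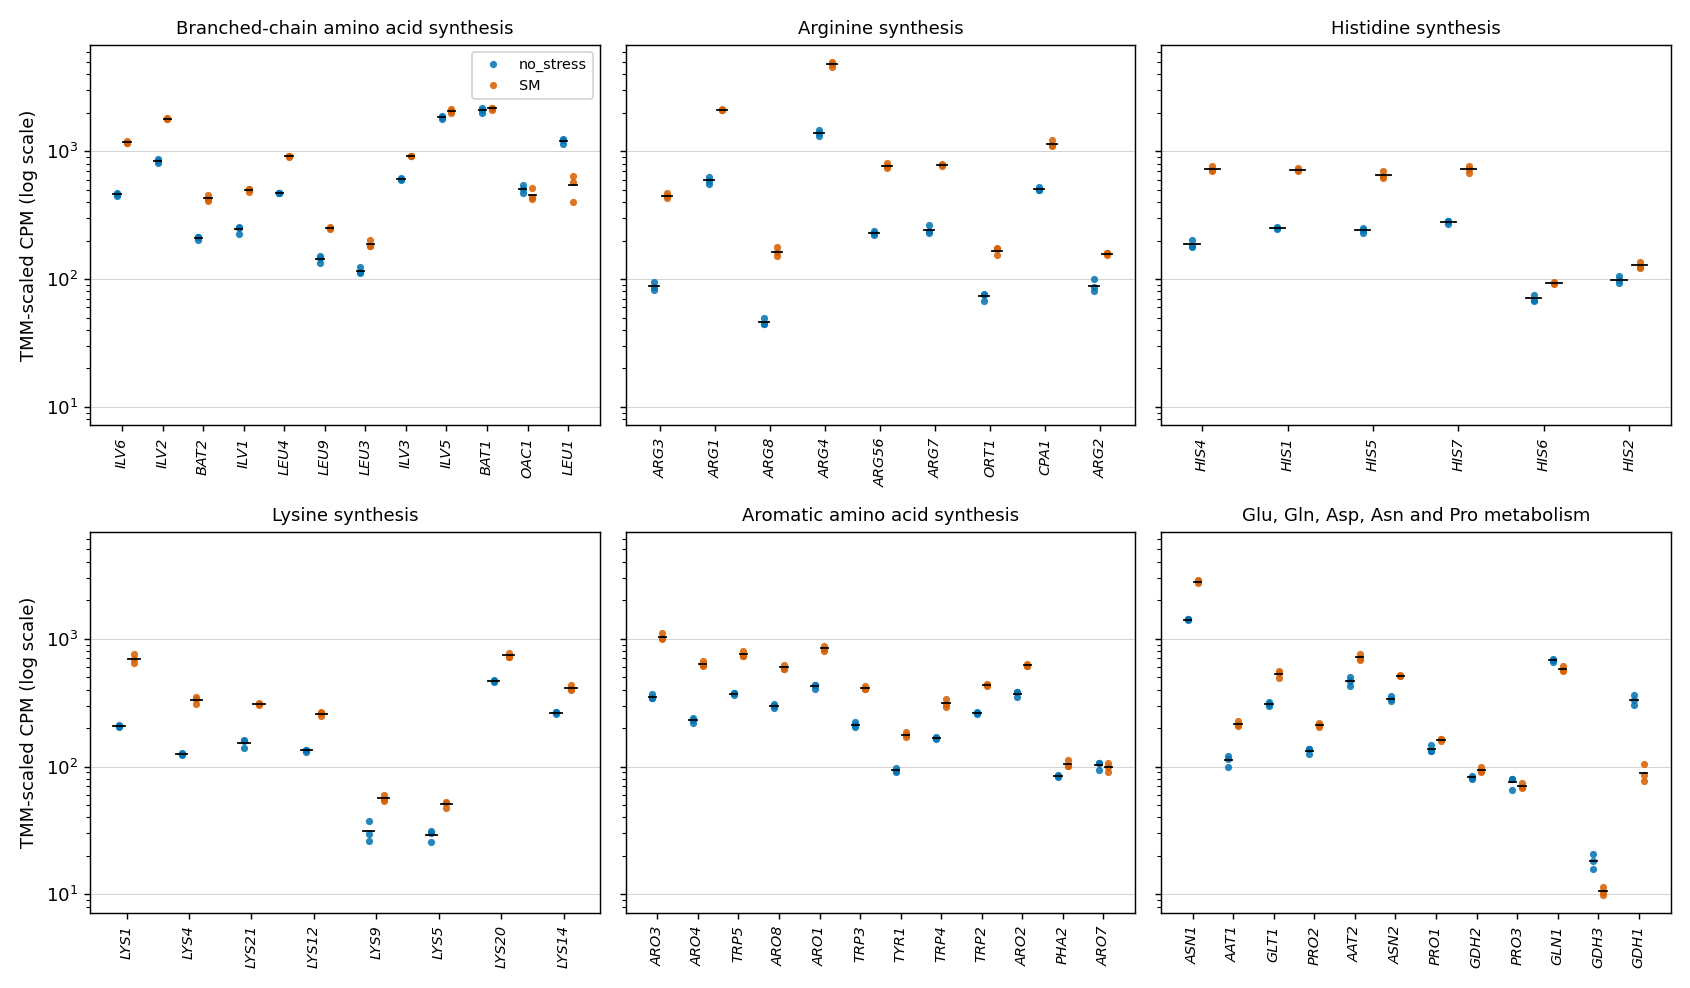
Each panel is an amino acid pathway (9 of the 10 arginine genes are drawn), with TMM-scaled CPM on a log axis; points are the 3 libraries of no_stress (blue) and SM (orange), and black bars are their means. In the arginine and histidine panels every SM point lies above every no_stress point, while LEU1, GDH1 and GDH3 go down.

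Histidine enzymes rose together, although the strain lacks HIS3. The other 6 genes all rose, with a median of 1.41. HIS4, whose product carries out several steps of the pathway, stood at 710, 703 and 767 CPM against 201, 179 and 182 CPM (1.96 ± 0.09, adjusted p = 9.84e-12). The SM values lay wholly above the no_stress values. HIS1, the first step, rose by 1.52 ± 0.06, HIS5 by 1.44 ± 0.06 and HIS7 by 1.37 ± 0.06. HIS6 and HIS2 rose by much less, 0.39 ± 0.08 and 0.37 ± 0.07.

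Lysine and aromatic enzymes also moved upward almost as whole pathways. All 8 lysine genes tested rose (median 0.90), LYS2 being absent from the strain. LYS1, saccharopine dehydrogenase at the last step, led them with 689, 641 and 762 CPM against 210, 204 and 208 CPM (1.75 ± 0.07, adjusted p = 4.84e-13). LYS4, homoaconitase, rose by 1.41 ± 0.08, and LYS14, the activator of the pathway, by 0.64 ± 0.06. Among the 12 aromatic genes tested 11 rose (median 0.94). ARO3 and ARO4, the paired enzymes of the first step, rose by 1.57 ± 0.07 and 1.46 ± 0.08, and the tryptophan genes TRP2 to TRP5 by 0.74 to 1.02. ARO7, chorismate mutase, did not pass, at 107, 98.5 and 90.4 CPM against 106, 106 and 94.2 CPM (−0.05 ± 0.08).

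In the branched-chain pathway, which holds the usual target of sulfometuron methyl, the response was mixed. Of 12 genes tested 9 rose, 1 fell and 2 did not pass (median 0.75). ILV2, the catalytic subunit of acetolactate synthase, stood at 1797, 1774 and 1809 CPM under SM and at 809, 862 and 839 CPM in no_stress, with a gap between the groups that no library bridged (1.10 ± 0.07, adjusted p = 1.65e-10). ILV6, its regulatory subunit, rose from 470, 443 and 463 to 1196, 1163 and 1155 CPM (1.35 ± 0.07, adjusted p = 1.17e-11). ILV1, threonine deaminase, rose by 1.02 ± 0.07 and ILV3 by 0.59 ± 0.07. ILV5, the enzyme after acetolactate synthase, was among the most abundant of the list and barely moved: its change was 0.17 ± 0.06 (adjusted p = 0.029). That call was lost with total-count scaling (adjusted p = 0.200) and without SM replicate A or B or no_stress replicate B or C (adjusted p 0.058 to 0.103).

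The aminotransferases differed, since the cytosolic BAT2 rose by 1.03 ± 0.07 and the mitochondrial BAT1 did not pass (0.05 ± 0.10). Leucine genes split as well. LEU4 and LEU9, which make isopropylmalate, rose by 0.95 ± 0.05 and 0.81 ± 0.08, and LEU3, the regulator that senses isopropylmalate, by 0.69 ± 0.11. LEU1, the next enzyme and a Leu3 target, went the other way. It stood at 577, 639 and 402 CPM under SM, with replicate C lowest, and at 1139, 1241 and 1215 CPM in no_stress (−1.15 ± 0.15, adjusted p = 3.87e-06). OAC1, the mitochondrial carrier that exports isopropylmalate, did not pass (−0.15 ± 0.10).

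Most genes of threonine, homoserine and methionine synthesis rose, 11 of 16 (68.8%, against 26.4% of all genes tested). Another 3 fell (18.8%, against 26.2%), and the list median was 0.45. HOM3, aspartate kinase, rose by 1.37 ± 0.06, from 366, 332 and 326 to 843, 900 and 901 CPM. STR3 and STR2, of the route between cysteine and homocysteine, rose by 1.42 ± 0.14 and 1.31 ± 0.08. CYS3, MET2 and HOM6 fell, by 0.46, 0.77 and 0.32. The rises of CYS4 and SAH1 were lost with total-count scaling (adjusted p = 0.088 and 0.059), and that of SAH1 also without SM or no_stress replicate C. Sulfate assimilation showed no common direction (median −0.01). Of its 15 genes, 5 rose (33.3%, against 26.4% of all genes tested) and 6 fell (40.0%, against 26.2%). MET16 rose by 0.91 ± 0.08 and MET3, the first enzyme of the route, fell by 1.22. SSU1, the plasma membrane sulfite pump, had the third largest rise among genes with a mean of at least 10 CPM in either group. Its libraries stood at 209, 182 and 243 CPM against 33.2, 31.2 and 34.2 CPM (2.69 ± 0.11, adjusted p = 1.07e-12).

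Among serine and glycine genes 8 of 10 rose (median 0.56). The SER33 call was lost with total-count scaling (adjusted p = 0.114). It was also lost without SM replicate A or B or no_stress replicate A or C (adjusted p 0.0503 to 0.095). The largest rise was in GCV2, a subunit of the glycine cleavage system, at 626, 506 and 779 CPM against 249, 257 and 235 CPM. The SM replicates were widely spaced but lay all above the no_stress libraries (1.37 ± 0.15, adjusted p = 8.20e-07). GCV1 (1.23 ± 0.17), SHM2 (1.05 ± 0.12) and GCV3 (0.78 ± 0.12) had the same order of SM replicates, C highest and B lowest. In the list of glutamate, glutamine, aspartate and proline genes 8 of 12 rose and 3 fell. ASN1, asparagine synthetase, rose by 0.99 ± 0.08, from 1421, 1390 and 1414 to 2729, 2850 and 2804 CPM. Glutamate enzymes diverged: GLT1, glutamate synthase, rose by 0.78 ± 0.08, while GDH1, the main glutamate dehydrogenase for ammonium assimilation, stood at 86.5, 104 and 76.7 CPM against 329, 360 and 300 CPM (−1.89 ± 0.10, adjusted p = 5.48e-11). GLN1, glutamine synthetase, fell by 0.23 (adjusted p = 0.048), a call that was lost when any library but SM replicate B was left out (adjusted p 0.060 to 0.127).

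Over the 8 amino acid synthesis lists (those above except sulfate assimilation and arginine control), 71 of 86 genes tested rose, 7 fell and 8 did not pass, with a median of 0.80. Of these, 31 rose by over 2-fold. They hold 91 genes, of which 5 (LEU2, HIS3, LYS2, TRP1 and MET17) are deleted in the strain and were not tested. Summed, they took 52015 to 53909 CPM under SM and 29487 to 29649 CPM in no_stress.

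The control pathway itself moved in both directions: of 18 genes, 7 rose (38.9%, against 26.4% of all genes tested) and 4 fell (22.2%, against 26.2%), with a median of 0.15. GCN4 (chrV:138918-139763, minus strand) rose from 304, 357 and 328 to 462, 462 and 519 CPM, with every SM library above every no_stress library (0.54 ± 0.08, adjusted p = 1.46e-05). These values are of new RNA and do not measure the translation of GCN4. The kinase gene GCN2 did not pass (0.17 ± 0.07, adjusted p = 0.059), but did with only the libraries compared (adjusted p = 0.014) and without no_stress replicate A (adjusted p = 0.047). GCN1, whose product works with Gcn2, passed at 0.14 ± 0.05 (adjusted p = 0.030). That call was lost with total-count scaling (adjusted p = 0.222) and without SM replicate B or C or no_stress replicate A or C (adjusted p 0.067 to 0.117). The largest rise of the list was PCL5, the cyclin that with Pho85 marks Gcn4 for breakdown, from 169, 185 and 181 to 391, 423 and 434 CPM (1.22 ± 0.07, adjusted p = 5.06e-11). Its largest fall was MBF1, a coactivator that bridges Gcn4 and the TATA-binding protein, at 372, 466 and 378 CPM against 1012, 1136 and 1166 CPM (−1.45 ± 0.13, adjusted p = 4.57e-08).

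**Figure D3:**
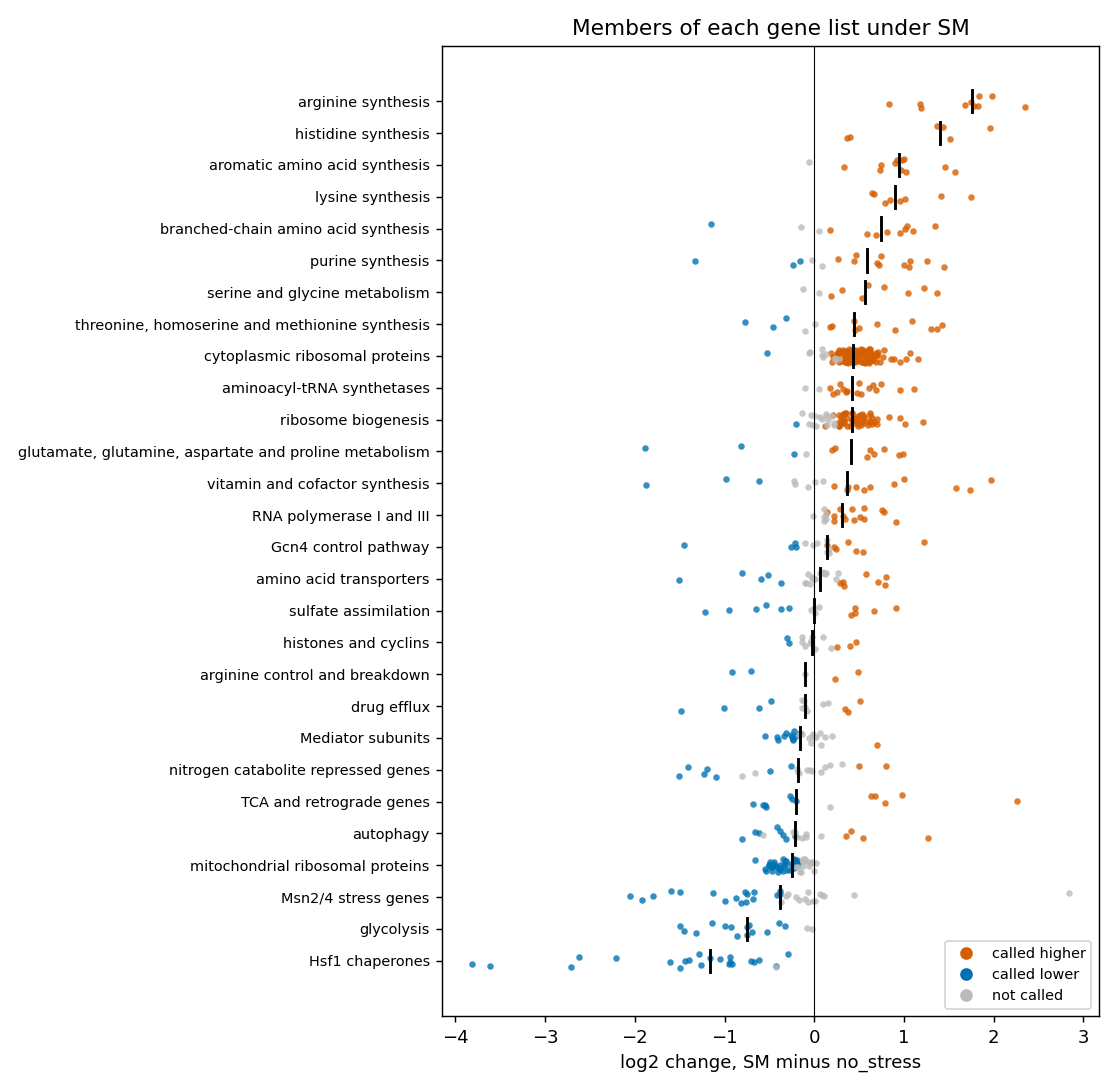
Every tested member of the 28 gene lists, by its log2 change (SM minus no_stress); orange points rose, blue points fell, grey points did not pass, and black bars are list medians. Lists are ordered by median, from arginine synthesis (1.76) down to the Hsf1 chaperones (−1.16).

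The genes with the largest rises, among those with a mean of at least 10 CPM in either group, were not amino acid synthesis enzymes but members of the Ehrlich pathway, which breaks amino acids down. ARO10 (chrIV:1234218-1236125), the decarboxylase of that pathway, stood at 267, 318 and 391 CPM under SM against 11.9, 15.8 and 10.9 CPM, a 25.3-fold difference of means (4.64 ± 0.23, adjusted p = 1.82e-11). ARO9, the aromatic aminotransferase that acts before it, stood at 326, 345 and 457 CPM against 38.4, 37.1 and 31.0 CPM (3.39 ± 0.15, adjusted p = 3.03e-12). In both genes the SM and no_stress libraries were far apart, with SM replicate C highest.

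Beside SSU1, ARG3 and HIS4, the 12 largest rises included GGC1, the mitochondrial GTP carrier, with 638, 639 and 676 CPM against 146, 158 and 164 CPM (2.06 ± 0.07). SNZ1, a pyridoxine synthesis gene, rose by 1.98 ± 0.10, and its divergently transcribed partner SNO1 by 1.73 ± 0.11. RTC2, related to vacuolar carriers of basic amino acids, rose by 1.96 ± 0.15, ZPS1, known to respond to low zinc, by 1.93 ± 0.12, and the hexose transporter gene HXT4 by 2.21 ± 0.32. HXT4 was scarce, at 11.2, 9.23 and 12.2 CPM against 1.98, 1.95 and 3.35 CPM, and shares sequence with other HXT genes. The largest gain per kb of coding sequence was in SPO24, a very short frame known from sporulation, from 15590 to 22936 CPM per kb. ATG41, an autophagy gene, was also among the 5 largest such gains and rose by 1.27 ± 0.09, from 711, 694 and 895 to 1678, 1778 and 2078 CPM.

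**Figure D4:**
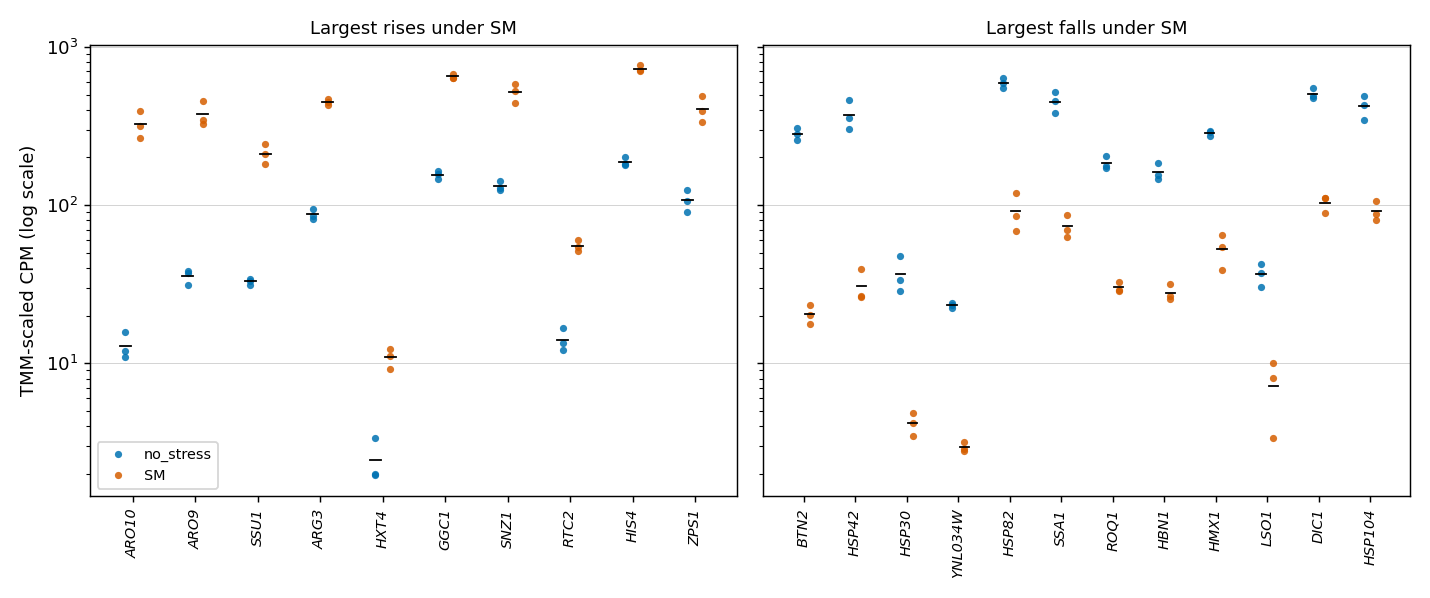
TMM-scaled CPM (log axis) of 10 of the 12 largest rises and of the 12 largest falls, with the 3 libraries of no_stress in blue, of SM in orange and their means as black bars. The groups do not overlap in any of these genes, as the rule that chose them required, and ARO10 and BTN2 show the widest gaps.

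The falls were led by chaperones. BTN2 (chrVII:772454-773686), which sorts misfolded proteins, stood at 17.7, 23.3 and 20.1 CPM under SM against 309, 283 and 259 CPM, a 13.9-fold lower mean (−3.81 ± 0.32, adjusted p = 1.47e-08). HSP42, a small heat shock protein, stood at 26.2, 39.4 and 26.6 CPM against 354, 460 and 301 CPM (−3.61 ± 0.29). HSP82, an Hsp90 chaperone, stood at 68.5, 120 and 85.5 CPM against 590, 634 and 550 CPM (−2.71 ± 0.20). No SM library reached the lowest no_stress library in these genes. In HSP42 and HSP82 replicate B was the highest of both groups. SSA1 (Hsp70) fell by 2.63 and HSP104, the disaggregase, by 2.21. In the list of genes controlled by the heat shock factor Hsf1, 22 of 23 fell and SSA4 did not pass, with a median of −1.16. The list summed to 4528 to 5320 CPM under SM and to 10218 to 11815 CPM in no_stress. HSP82 and HSC82 are near copies, as are SSA1 and SSA2, so reads may be split between them. All 4 fell.

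Stress genes under Msn2 and Msn4 moved down less evenly. Of 32 genes, 17 fell (53.1%, against 26.2% of all genes tested) and none rose (against 26.4%). The other 15 did not pass, and the median was −0.38. Trehalose genes were among the falls: TPS1 by 1.13 and TPS2 by 0.87, and TSL1 stood at 93.4, 131 and 135 CPM against 307, 450 and 247 CPM. SOL4 fell most, from 7.17, 15.9 and 9.38 to 1.95, 3.66 and 2.45 CPM. HSP12 did not pass, with 10 to 12 counts in the SM libraries and 0 to 2 counts in no_stress.

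Glycolysis fell as a pathway. Of 16 genes 14 fell and none rose (median −0.75), the exceptions being PFK1 and PFK2. ADH1, the main alcohol dehydrogenase of fermentation, stood at 583, 618 and 408 CPM against 1486, 1535 and 1530 CPM (−1.50 ± 0.11, adjusted p = 2.02e-09). GPM1, phosphoglycerate mutase, stood at 712, 805 and 657 CPM against 1668, 1551 and 1575 CPM (−1.14 ± 0.09). CDC19, pyruvate kinase, was the most abundant of the list and fell by 0.52. The TDH and ENO genes are families of near copies, and all their members listed fell.

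The largest losses per kb of coding sequence were in AHP1, a peroxiredoxin, from 9840 to 5723 CPM per kb, and in FIT2 and FIT3, cell wall proteins that help take up iron bound to siderophores. FIT2 stood at 303, 496 and 476 CPM against 1600, 1670 and 1425 CPM (−1.88 ± 0.15). HMX1, heme oxygenase, fell by 2.46 and LSO1, a short frame known from low iron, by 2.43. DIC1, the mitochondrial dicarboxylate carrier, fell by 2.29, and ROQ1, which redirects a ubiquitin ligase under stress, changed by −2.61. HSP30, HBN1 and YNL034W complete the 12 largest falls, at −3.13, −2.54 and −2.96.

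Genes for making ribosomes rose. Of 137 cytoplasmic ribosomal protein genes, 127 rose, 1 (RPL15B) fell and 9 did not pass, with a median of 0.43. RPL22B rose most, from 104, 95.7 and 114 to 236, 229 and 232 CPM (1.16 ± 0.08). Most of these genes come in near-identical pairs, so the split between paralogs is uncertain. Ribosome biogenesis genes moved alike, with 58 of 74 higher and 1 lower (median 0.42). The helicase gene DBP2 rose most of these, from 182, 154 and 261 to 429, 461 and 487 CPM (1.22 ± 0.15). The single fall, NOP6, is not robust, since it was lost when any library but no_stress replicate B was left out (adjusted p 0.069 to 0.165). Subunits of RNA polymerases I and III rose in 14 of 20 cases and fell in none (median 0.31), with RPA135 at 0.92 ± 0.11. Among aminoacyl-tRNA synthetases 16 of 18 rose (median 0.42). KRS1, for lysine, led with 2462, 2450 and 2532 CPM against 1119, 1130 and 1192 CPM (1.11 ± 0.06). Mitochondrial ribosomal protein genes did the reverse, with 40 of 56 lower and none higher (median −0.25).

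Among neighbouring pathways, purine synthesis and the vitamin list held more rises than falls. In purine synthesis 11 of 16 genes rose (68.8%, against 26.4% of all genes tested) and 3 fell (18.8%, against 26.2%). The median was 0.58, and ADE2 was not tested since the strain lacks it. ADE12 rose by 1.45 ± 0.08 and BAS1, an activator of purine and histidine genes, by 1.06 ± 0.11, while IMD2, of GTP synthesis, fell by 1.33. Vitamin and cofactor genes rose in 11 of 19 cases (57.9%) and fell in 3 (15.8%), against 26.4% and 26.2% of all genes tested. Amino acid transporters rose in 7 of 27 cases (25.9%) and fell in 5 (18.5%), against 26.4% and 26.2% of all genes tested, so the share of rises was that of the background. The arginine permease CAN1 rose by 0.80 ± 0.06, and the general permease GAP1 stood at 21.1, 23.7 and 16.1 CPM against 58.6, 57.6 and 57.6 CPM (−1.51 ± 0.11). GAP1 belongs to the genes repressed by good nitrogen sources. Of these 21 genes, 2 rose (9.5%, against 26.4% of all genes tested) and 7 fell (33.3%, against 26.2%). Their activator gene GLN3 was 1 of the rises, at 0.80 ± 0.06. In the citrate cycle and retrograde list 5 of 13 rose (38.5%, against 26.4% of all genes tested) and 7 fell (53.8%, against 26.2%). CIT2 changed by −0.68 ± 0.06 and the pyruvate carboxylase PYC2 by 0.98 ± 0.06. Of 20 autophagy genes 4 rose (20.0%, against 26.4% of all genes tested) and 8 fell (40.0%, against 26.2%). The falls dropped to 4 without SM replicate C or without no_stress replicate B and to 5 without SM replicate B.

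Among the 25 Mediator subunits 1 rose (4%, against 26.4% of all genes tested) and 12 fell (48%, against 26.2%), with a median of −0.16. The rise was SRB8, by 0.70 ± 0.07. The drug efflux list was near the shares over all genes, with 3 of 14 higher (21.4%) and 4 lower (28.6%). PDR5, the main multidrug pump, fell from 2983, 2874 and 2995 to 1472, 1403 and 1535 CPM (−1.01 ± 0.08). The 3 rises of the list became 1 with total-count scaling, without SM replicate C or without no_stress replicate A. Histone and cyclin genes were called in no larger shares than all genes, with 3 of 14 higher (21.4%) and 2 lower (14.3%), and the falls became 0 without SM replicate C and 1 without no_stress replicate A. Of the 5 arginine control and breakdown genes, 2 rose (40%, against 26.4% of all genes tested) and 2 fell (40%, against 26.2%). The rises became 1 with total-count scaling, without SM replicate C or without no_stress replicate A.

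The letters seen in the printed stretches were counted in a window from 250 bases before to 50 after the coding start of 5792 genes, on both strands. TGACTC was in 8.15% of all windows, in 29.9% of those of the 154 genes that rose by over 2-fold (46 genes) and in 2.06% of those of the 97 that fell by over 2-fold (2 genes). It was in 45 of the 91 windows of the amino acid synthesis lists (49.5%). The longer TGACTCA, which contains TGACTC, was in 2.76% of all windows, in 21.4% of those of the 154 genes and in none of those of the 97. Of the tested genes with TGACTCA in the window 56.8% rose, against 25.5% of those without. The contrast was smaller within the amino acid synthesis lists, where most genes rose without these letters too. There 23 of 25 tested genes with TGACTCA rose (92.0%, median 0.99), and 48 of 61 without it (78.7%, median 0.74). The windows of ARG3 and ARG1 do not hold the letters, since their matches lie farther out. With 500 bases before the start, a window chosen after seeing the data, 64.8% of the amino acid synthesis genes and 12.8% of all genes held TGACTC.

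Other letters marked other groups. AGGGG, the core of the element bound by Msn2 and Msn4, was in 21.8% of all windows and in 42.3% of those of genes that fell by over 2-fold. GATGAG, the core of the PAC element of ribosome biogenesis genes, was in 64 of the 74 windows of that list (86.5%) and in 20.0% of all. These shares are descriptions and carry no test.

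SM and HS were compared directly, with Med15 present in both. SM was higher than HS in 2185 genes (39.4%) and lower in 2156 (38.9%). All 10 arginine genes were higher under SM than HS (median difference 2.55), as were 71 of 74 ribosome biogenesis genes (1.06) and 19 of 20 subunits of RNA polymerases I and III (0.62). Chaperones and stress genes were lower without exception, in 23 of 23 Hsf1 genes (−2.54) and 32 of 32 Msn2 and Msn4 genes (−3.11), as were all 16 glycolysis genes (−1.31). Cytoplasmic ribosomal protein genes showed no common difference, with 22 of 137 higher and 23 lower (−0.03).

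Each stress was also compared with the same no_stress libraries, so that the following pairs of values share their control. The median of ribosomal protein genes was 0.43 under SM and 0.46 under HS, and that of ribosome biogenesis genes 0.42 under SM and −0.68 under HS. HSP82 had a mean of 91.2 CPM under SM, 591 CPM in no_stress and 4063 CPM under HS. ARO10 and ARO9 were above no_stress under both stresses, since under HS they had means of 203 ± 29.8 and 239 ± 27.2 CPM (SD, n = 3). The direct difference was 0.67 for ARO10 (adjusted p = 0.0014) and 0.65 for ARO9 (adjusted p = 1.0e-04), higher under SM. GCV2 was the reverse, higher under HS, with a difference of −0.39 (adjusted p = 0.021).

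**Figure D5:**
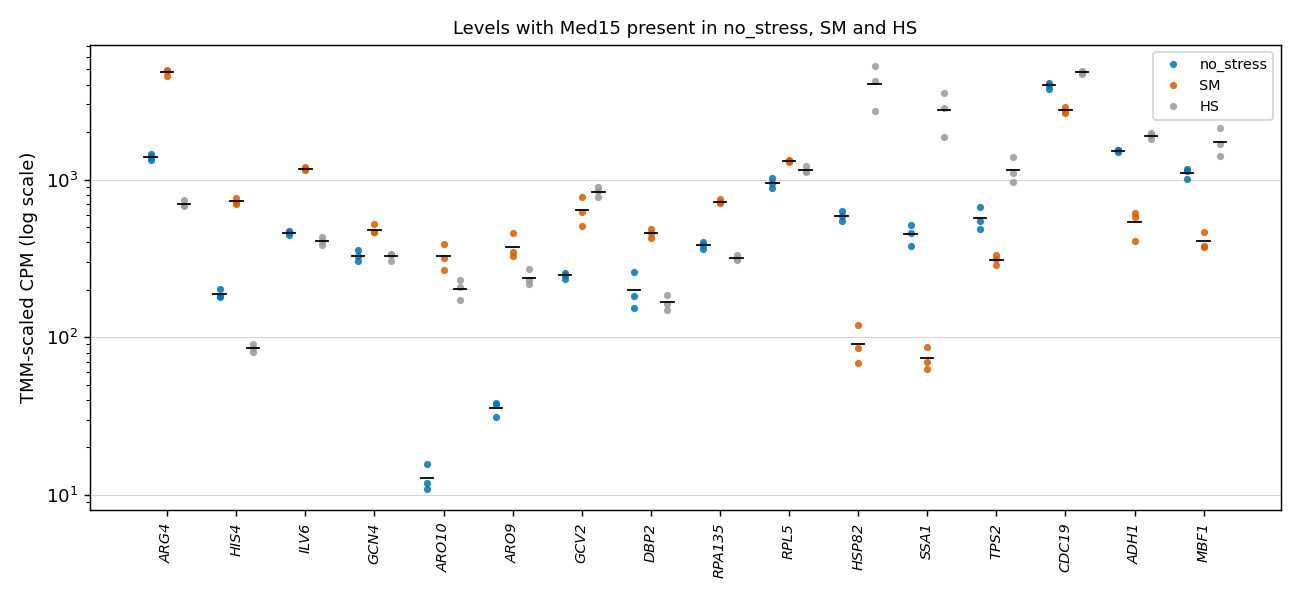
TMM-scaled CPM (log axis) of 16 genes in the 3 libraries each of no_stress (blue), SM (orange) and HS (grey), with means as black bars; the genes were picked after their values were seen, to span the groups described. ARG4, HIS4 and ILV6 are high under SM alone, HSP82 and SSA1 are lowest under SM and highest under HS, and ARO10 and ARO9 lie above no_stress under both stresses.

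Under SM, cells depleted of Med15 differed from cells with Med15 in both directions, with 1166 genes higher (21%) and 1504 lower (27.1%). The balance depends on the scaling and on the libraries fitted. With total-count scaling, which moved the median gene from −0.04 to 0.09, 1922 genes were higher and 750 lower, and with only the libraries compared 1436 were higher and 1360 lower. The comparison sets IAA_SM against the SM libraries, and no unstressed library treated with IAA was used here. With TMM scaling, 1 of the 10 arginine synthesis genes was higher and 6 were lower (median −0.80). Of the 8 lysine genes tested, 5 were higher and 1 was lower. Over the 86 amino acid synthesis genes tested, 21 were higher and 40 lower (median −0.15). The 5 genes that follow are examples that no rule picked for this comparison. ARG3 had a mean of 33.4 ± 2.95 CPM in IAA_SM against 450 ± 21.4 CPM (−3.75, adjusted p = 8.0e-16), far below its list's median. ARG7 stood at 817 against 778 CPM on average and did not pass (0.07, adjusted p = 0.496). With the replicate letter as a block and only the libraries compared, ARG7 passed as slightly higher (0.11, adjusted p = 0.047). LYS1 was higher after depletion, with a log2 change of 0.79 (adjusted p = 9.0e-09). ARO10 did not pass (−0.08, adjusted p = 0.70). GCN4 had a lower mean after depletion, 362 ± 12.1 against 481 ± 33.0 CPM (−0.41, adjusted p = 2.9e-04).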

How the data were processed

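RNA made during 5 min of 4-thioU labelling was sequenced by the authors from libraries built with the Ovation Universal kit, per the labels' protocols. Bowtie2, HTSeq and the builds sacCer3 and ASM294v2 were used, per the submitters' processing notes. Versions, the strand setting and the role of the second build are not given in the sources used here. The deposited value column is headed signal per the file headers. In the 15 libraries of the stress experiment it holds whole numbers summing to 4384651 to 10032201, and it was therefore taken as the authors' raw count per gene. The other 162 libraries were not used here.

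Each file lists 5794 genes, and 5792 of these systematic names were found in RefSeq's R64 annotation. Counts of all 15 libraries (5 groups of 3) were fitted with edgeR 4.0.16 in R 4.3.3, with TMM scaling, filterByExpr (5547 genes kept), the quasi-likelihood F test and Benjamini-Hochberg adjustment over all genes kept, with a call at an adjusted p under 0.05. A shift shared by all genes cannot be seen on this scale. With 3 libraries a group, the median SE of a log2 change was 0.081. No libraries were identical (0 pairs).

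Named genes were the 12 largest rises and 12 largest falls by log2 change and the 5 largest gains and losses per kb, among called genes with a mean CPM of at least 10 in either group and no overlap between groups. To these came up to 4 members per gene list, all members of the amino acid lists, GCN4, GAL11 and the genes altered in the strain. SNO1, TPS1, TSL1, PYC2, SSA2, SSA4, HSP12, PFK1 and PFK2 were named after their values were seen. Some genes that this rule names are not reported here. The gene lists and the genes in them were chosen with earlier results of these data known. Replicate letters were not treated as pairs for SM against no_stress, where same-letter libraries deviated with correlations of 0.062, 0.081 and 0.045. For IAA_SM against SM all 3 correlations were over 0.1 (0.127, 0.18 and 0.111), so the letters were taken to pair those libraries. The values reported for that comparison are nonetheless from the fit without the block, which was the main design, and the blocked value is given where it changes a call.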

Additional observations from a re-analysis of the deposited data

How the results depend on the processing

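Counts of calls over all genes were recomputed with total-count scaling, DESeq2 1.42.0 and its size factors, limma-voom, other filters on low counts, only the libraries compared, the replicate letter as a block and each library left out. For SM against no_stress the rises ran from 1165 (total-count scaling) to 1555 (only the libraries compared) and the falls from 1181 (without SM replicate C) to 1888. With the replicate block there were 1481 rises and 1483 falls, and with the block and only the libraries compared, a setting added after seeing the data, 1547 and 1460. Each SM library correlated best with the no_stress library of its own letter, which is a hint from the data and not the design. Of 240 alternative counts of calls 237 stayed within 1.5 times the main count. The other 3 concern Med15 depletion under SM: with total-count scaling 1922 genes were higher and 750 lower (1166 and 1504 with TMM), and with a mean CPM of at least 10 the rises of over 2-fold numbered 91 (186 before), where fewer genes were tested. The cause of the shift with scaling was not tested. With the replicate block that comparison had 1179 rises and 1544 falls, and with the block and only the libraries compared 1562 and 1521. The block changed the call of 1 of the 5 genes named there, ARG7. Of 204 named genes tested, 181 kept their direction and their side of the threshold in every alternative, and none reversed. No list median changed sign with total-count scaling. Depth limits genes of few counts such as HSP12, HXT4 and LSO1.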
